A study of Mus musculus with 24 samples.

Results

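Peaks of the linker histone H1.0 were set against peaks of histone H3 trimethylated at lysine 9 (H3K9me3) in control cells at day 1 of cardiac reprogramming. The members were the 4 peak lists that the labels give to these antibodies under siControl at day 1, of the 24 samples in the series, 16 of which have a peak list here. They comprised 2 samples of H1.0 and 2 of H3K9me3, and peaks on chromosomes 1 to 19 and X were used. The lists were H1.0 replicate 1 with 722039 peaks, H1.0 replicate 2 with 32912 peaks, H3K9me3 replicate 1 with 69311 peaks and H3K9me3 replicate 2 with 44549 peaks.

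The cells were 1 line of mouse embryonic fibroblasts, iMGT-Myh6-eGFP-MEF, in which doxycycline switches on a reprogramming cassette called MGT and in which, by the line's name, eGFP reports on Myh6, a cardiac myosin gene. All 4 samples had been plated at 300000 cells per well, transfected with siControl, given 1 µg/mL doxycycline on the next day and frozen at day 1 after induction, with about 250000 cells per condition. CUT&RUN, in which a nuclease held by an antibody releases the DNA around its target, was used for the mapping. The series title concerns H1.0, its interaction with the AP-1 factor JUNB, and cell identity. What was repeated between biological replicates was not stated, so the spread between lists may be partly technical.

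H1.0, encoded by H1f0, is a linker histone: it binds where DNA enters and leaves the nucleosome and is found at high levels in differentiated and slowly dividing cells. H3K9me3 is the mark of constitutive heterochromatin, bound by HP1 proteins, and in mouse cells it covers silent repeats, imprinting control elements and clusters of genes for zinc finger proteins. Linker histones are known to compact nucleosome arrays, and the comparison sets the sequence held by H1.0 beside that held by a known mark of compact chromatin.

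Because the lists differed in length by over an order of magnitude, each was reduced to its 20000 peaks with the highest maximum signal, a score that is the authors' own and is used to rank peaks within a list. The 20000th peak had a maximum signal of 11 and 5 in H1.0 replicates 1 and 2, and of 7 and 20 in H3K9me3 replicates 1 and 2. The highest values were 150 and 101 for H1.0, and 151 and 1252 for H3K9me3. These 20000 peaks were 2.77% and 60.8% of the 2 H1.0 lists, and 28.9% and 44.9% of the H3K9me3 lists. Full lists covered 34.6% and 1.08% of the sequence span for H1.0, and 4.14% and 13.8% for H3K9me3, so the same depth of ranking was not reached in each. By the list names, H1.0 replicate 1 and H3K9me3 replicate 2 begin with B, while H1.0 replicate 2 and H3K9me3 replicate 1 begin with MB. The labels do not say what these letters stand for, and values within each pair are given where they bear on a comparison.

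The DNA before the start sites that each mark held most strongly is shown first, because the marks lay at promoters of unlike base composition. Each line gives the 150 bases before a start site, read 5′ to 3′ along the gene's strand, as RefSeq gives it for GRCm38.p6, which is the assembly behind mm10. Capitals mark CG pairs. The first 3 lines are the promoters with the strongest peaks in both H1.0 lists and none in either H3K9me3 list.
Hjurp, chr1:88277580-88277729, minus strand: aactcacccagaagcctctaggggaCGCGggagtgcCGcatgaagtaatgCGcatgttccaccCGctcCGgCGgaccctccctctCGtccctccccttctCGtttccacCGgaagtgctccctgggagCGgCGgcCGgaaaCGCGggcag
Trpm8, chr1:88306585-88306734, plus strand: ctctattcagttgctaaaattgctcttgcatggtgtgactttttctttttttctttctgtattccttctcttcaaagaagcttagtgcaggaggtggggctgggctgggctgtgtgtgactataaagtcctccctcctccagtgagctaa
Gm5165, chr17:17234753-17234902, plus strand: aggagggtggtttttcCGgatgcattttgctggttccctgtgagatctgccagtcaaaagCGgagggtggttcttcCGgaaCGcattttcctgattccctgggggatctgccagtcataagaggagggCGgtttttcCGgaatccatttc
The next 3 lines are the promoters with the strongest peaks in both H3K9me3 lists and none in either H1.0 list.
Gm29758, chr12:20435011-20435160, plus strand: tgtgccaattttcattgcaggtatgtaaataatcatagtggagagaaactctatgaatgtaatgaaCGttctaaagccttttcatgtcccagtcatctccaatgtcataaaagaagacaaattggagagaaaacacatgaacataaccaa
LOC115488002, chr12:18648840-18648989, plus strand: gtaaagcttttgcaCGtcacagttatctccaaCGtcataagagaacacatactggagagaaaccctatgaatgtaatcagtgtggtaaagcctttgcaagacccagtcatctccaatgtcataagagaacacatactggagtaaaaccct
4930522L14Rik, chr5:109739218-109739367, minus strand: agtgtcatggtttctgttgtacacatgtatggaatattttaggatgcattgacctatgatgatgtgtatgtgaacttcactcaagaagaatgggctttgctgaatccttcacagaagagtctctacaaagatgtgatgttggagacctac
The last 3 lines also lay in both H3K9me3 lists and neither H1.0 list and were chosen after their values were seen, because they differ from the 3 before them in holding many CG pairs.
Nnat, chr2:157559928-157560077, plus strand: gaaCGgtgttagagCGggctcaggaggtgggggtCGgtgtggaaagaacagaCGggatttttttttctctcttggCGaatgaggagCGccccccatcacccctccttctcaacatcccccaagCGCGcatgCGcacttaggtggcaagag
Atf3, chr1:191183334-191183483, minus strand: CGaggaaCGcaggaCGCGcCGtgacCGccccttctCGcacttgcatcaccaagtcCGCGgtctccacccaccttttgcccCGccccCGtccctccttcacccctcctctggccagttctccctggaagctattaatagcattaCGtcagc
Tasor, chr14:27428684-27428833, plus strand: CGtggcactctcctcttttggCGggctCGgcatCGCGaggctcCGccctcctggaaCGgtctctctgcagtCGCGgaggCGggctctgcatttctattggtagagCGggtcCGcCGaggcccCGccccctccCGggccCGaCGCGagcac

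The strongest H1.0 promoters held 15, 0 and 6 CG pairs in these 150 bases, so they were not of a single kind. The strongest H3K9me3 promoters held 1, 2 and 0, while Nnat held 9, Atf3 held 12 and Tasor held 18. Over all 21044 RefSeq promoter windows the median was 7 CG pairs in the 150 bases, with 10.9% having none and 39.5% having 10 or more. The runs before Gm29758 and LOC115488002 share the 23 letters CCCAGTCATCTCCAATGTCATAA, the longest run common to both. Searched on both strands in windows of 250 bases before to 50 after each start, these letters stood in 0 of 173 windows with H1.0 alone, in 3 of 145 with H3K9me3 alone and in 3 of 21044 windows overall (0.0143%), so all 3 matches were H3K9me3 windows. The letters were found by comparing these very sequences, so the match describes the windows and supports nothing further.

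H1.0 and H3K9me3 also divided promoters by base composition over all windows that the top-ranked peaks of each list held. Full lists were not used for this comparison. Windows held by H1.0 replicates 1 and 2 had a median GC content of 57.7% and 57.3%, with medians of 15 and 14 CG pairs over the 300 bases. Windows held by H3K9me3 replicates 1 and 2 had a median GC content of 46.2% and 45.7%, with medians of 4 and 2 CG pairs. All windows had 56.7% and 13, so the H1.0 windows were close to promoters in general and the H3K9me3 windows were poor in CG. In number, H1.0 held 1471 and 521 windows, against 180 and 737 for H3K9me3. Both H1.0 lists and neither H3K9me3 list held 173 windows, both H3K9me3 lists and neither H1.0 list held 145, and all 4 lists held 7, among them those of Eif4a3l1, Sp110 and Sp140.

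Around start sites the marks went opposite ways. Within 1 kb of 17273 annotated start sites, H1.0 peaks covered 5.73% and 1.47% of the sequence in replicates 1 and 2, against 2.58% and 0.933% at 10 to 20 kb away, which is 2.22 and 1.58 times the outer level. H3K9me3 peaks covered 0.853% and 3.61% within 1 kb, against 2.00% and 6.44% at 10 to 20 kb, which is 0.428 and 0.561 times the outer level. H1.0 was thus denser and H3K9me3 sparser at starts than in the flanks in each of the lists. Counted by peak midpoints, 4.97% and 3.18% of H1.0 peaks, against 0.625% and 0.490% of H3K9me3 peaks, lay within 1 kb of a start site, which takes up 1.40% of the span. With full lists these shares were 1.69% and 3.04% for H1.0 and 0.695% and 0.471% for H3K9me3. The full list of H1.0 replicate 1 was thus only slightly above the span's share.

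**Figure D1:**
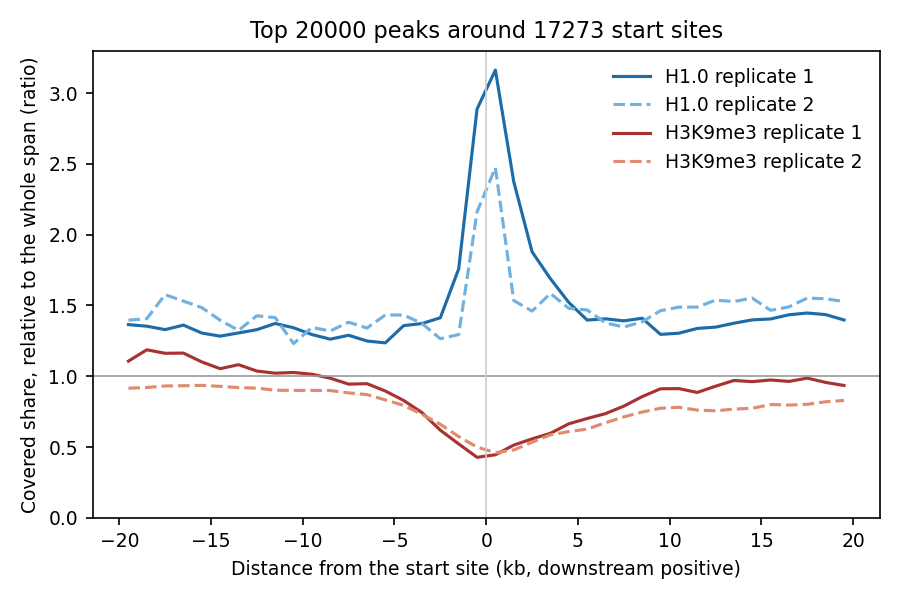
Share of sequence covered by the top 20000 peaks of each list in 1 kb steps around 17273 start sites, divided by that list's cover of the whole span (y axis, ratio), against distance from the start site in kb (x axis). Both H1.0 lines peak at the start site and both H3K9me3 lines dip there, with 0.428 and 0.561 times the level of the flanks within 1 kb.

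Gene bodies showed the same division. Midpoints of 55.6% and 60.5% of H1.0 peaks lay in an annotated gene body, against 38.2% and 37.3% of H3K9me3 peaks, where gene bodies make up 47.2% of the span. The H1.0 mean was 58.1 ± 3.50% and the H3K9me3 mean 37.7 ± 0.643% (SD, n = 2 lists each), a difference of 20.3 percentage points that was larger than either spread. It was 18.3 points within the pair named B and 22.4 points within the pair named MB. H1.0 lay above the share of the span and H3K9me3 below it. The exact permutation test, two-sided, gave p = 0.333, the smallest that 2 lists against 2 allow, so no test of this kind here can pass 0.05.

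Gene ends followed gene bodies. Within 5 kb of either annotated end lay 31.2% and 32.9% of H1.0 peaks, against 21.7% and 21.9% of H3K9me3 peaks, with 23.1% of the span being that close. The means were 32.0 ± 1.19% for H1.0 and 21.8 ± 0.113% for H3K9me3 (SD, n = 2 lists each), and the difference was 10.3 points (exact permutation test, two-sided, p = 0.333), with 9.34 within pair B and 11.2 within pair MB. The groups did not overlap in either measure. H1.0 stood above the span's share while H3K9me3 stood slightly below it.

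The same measures in ground-state lists, from cells that were not reprogrammed, are given beside these without a test. In ground-state H1.0, 62.2% and 51.0% of peaks lay in gene bodies and 34.6% and 29.5% near gene ends. In ground-state H3K9me3, 39.0% and 37.9% lay in gene bodies and 21.6% and 21.8% near gene ends. The 2 kinds of list were apart there too, with a wider spread in H1.0.

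Rank changed the picture for 1 library. The strongest 1000 peaks of H1.0 replicate 1 lay in gene bodies in 40.0% of cases and near gene ends in 19.4%, and 6.80% were on chromosome X. Those 1000 were thus closer to the H3K9me3 lists than to the rest of their own list, of which ranks 1001 to 5000 had 55.6% in gene bodies, 32.7% near gene ends and 2.38% on chromosome X. H1.0 replicate 2 showed no such break, with 54.8% in gene bodies and 37.1% near gene ends among its strongest 1000. H3K9me3 had 41.5% and 38.5% in gene bodies in the strongest 1000.

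H1.0 peaks were narrower than H3K9me3 peaks within each pair of list names, but the lists of each mark differed about as much from each other. The median width of the top 20000 was 1907.5 and 767 bp for H1.0, against 2035 and 4652 bp for H3K9me3. H1.0 replicate 1 and H3K9me3 replicate 1 were nearly equal. The means were 1337 ± 806 bp and 3344 ± 1850 bp (SD, n = 2 lists each), a difference of -2006 bp that was little more than the larger spread (exact permutation test, two-sided, p = 0.333). H3K9me3 peaks were 2.44 times as wide as H1.0 peaks in the pair named B and 2.65 times as wide in the pair named MB. In ground-state cells the medians were 991 and 4570.5 bp for H1.0 and 2128 and 4187 bp for H3K9me3, so the marks overlapped in width there. Ranked by summed in place of maximum signal, the day 1 means were 2623 bp for H1.0 and 5405 bp for H3K9me3 and the groups overlapped (exact permutation test, two-sided, p = 0.667).

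Among the day 1 lists, domains of 10 kb or more lay mostly in H3K9me3 replicate 2. They were 1.12% and 0.0150% of H1.0 peaks, against 0.955% and 20.5% of H3K9me3 peaks, and the groups overlapped (exact permutation test, two-sided, p = 0.667). In ground-state cells they were 0.0450% and 19.9% of H1.0 peaks and 1.22% and 15.2% of H3K9me3 peaks, so wide domains were not limited to H3K9me3 lists. The widest peak of the day 1 H1.0 lists was 29666 bp, in replicate 2 at chr1:88236814-88266479. It reached into Hjurp, which encodes the chaperone of the centromeric histone CENP-A. H3K9me3 replicate 2 had a peak of 528472 bp.

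Within the top 20000, the stronger H3K9me3 peaks were the wider ones. From ranks 1 to 1000 through 1001 to 5000 to 5001 to 20000, the median H3K9me3 width was 5386.5, 3197.5 and 1729.5 bp in replicate 1 and 7158.5, 5922.5 and 4169 bp in replicate 2. For H1.0 it was 1176, 2509 and 1836.5 bp in replicate 1, with the strongest peaks the narrowest, and 864.5, 772 and 765 bp in replicate 2. Below rank 20000 the order broke in H3K9me3 replicate 2, whose remaining peaks had a median of 4852 bp, while those of H3K9me3 replicate 1 had 1063 bp.

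**Figure D2:**
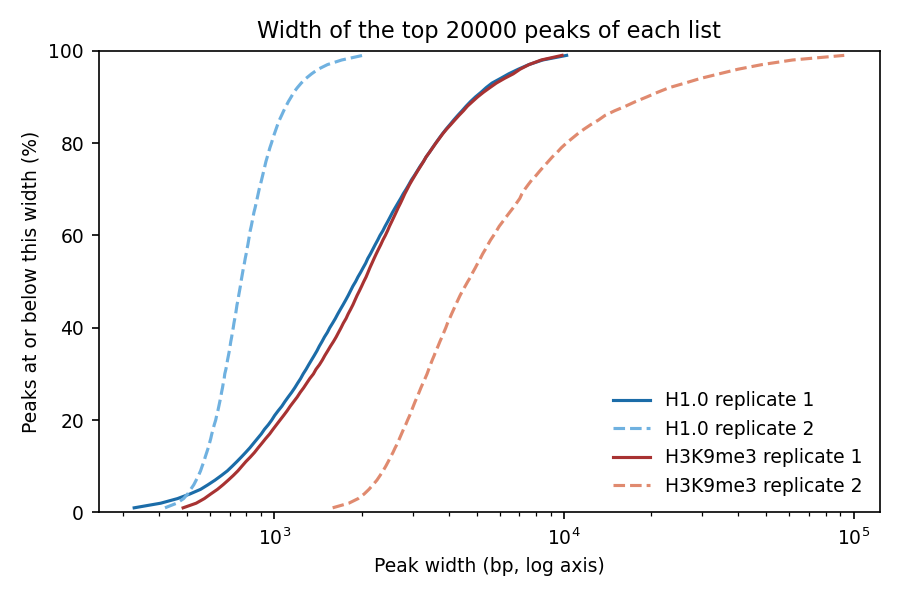
Cumulative share of the top 20000 peaks (y axis, %) at or below each width (x axis, bp, log axis), drawn between the 1st and 99th percentile of each list. H1.0 replicate 2 is the narrowest with a median of 767 bp and H3K9me3 replicate 2 the widest with 4652 bp, while H1.0 replicate 1 and H3K9me3 replicate 1 nearly coincide.

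The marks were spread unevenly and differently over chromosomes. Of 20 chromosomes, 5 (25.0%) had both H1.0 shares above both H3K9me3 shares, namely 1, 2, 9, 11 and 15. Another 10 (50.0%) had both H1.0 shares below both H3K9me3 shares, namely 3, 5, 7, 8, 12, 13, 14, 16, 18 and X, and 5 overlapped. These orders are those of the top-ranked peaks and depended on list length. With full lists, H1.0 stayed above H3K9me3 on chromosomes 2, 11 and 15 and below it on 5, 8, 12 and 16. The shares of the marks then overlapped on 1, 9, 3, 7, 13, 14, 18 and X. Chromosome 11 held 7.04% and 8.76% of H1.0 peaks, against 2.92% and 4.52% of H3K9me3 peaks and 4.64% of the span. Chromosome 1 held 10.6% and 11.9% of H1.0 peaks, against 6.66% and 7.59% of H3K9me3 peaks and 7.42% of the span. These shares did not simply follow gene number: chromosome 1 carries 6.01% of the genes, chromosome 11 carries 6.23%, and chromosome 7 carries 8.40% of the genes on 5.52% of the span but held 2.70% and 3.05% of H1.0 peaks, against 3.19% and 3.54% of H3K9me3 peaks. Both marks stood above the span on chromosomes 2, 5, 9, 10 and 17 and below it on 3, 4, 7, 14, 18, 19 and X, in all 4 lists. With full lists this held except on chromosomes 2 and 18, where H3K9me3 replicate 2 lay on the other side of the span's share.

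Chromosome X was sparse in both marks and sparser in H1.0. It held 2.24% and 1.81% of H1.0 peaks, against 3.29% and 4.91% of H3K9me3 peaks, where the span's share is 6.49%. The means were 2.03 ± 0.301% and 4.10 ± 1.14% (SD, n = 2 lists each), a difference of -2.07 points (exact permutation test, two-sided, p = 0.333), with -2.67 within pair B and -1.47 within pair MB. In ground-state cells the shares were 1.68% and 2.47% for H1.0, against 3.23% and 4.68% for H3K9me3.

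Chromosome 5 stood out in H3K9me3 replicate 1. It held 8.45% and 6.54% of H1.0 peaks, against 15.4% and 8.66% of H3K9me3 peaks and 5.77% of the span. In the 3 stretches of 10 Mb from 120, 130 and 140 Mb, H3K9me3 replicate 1 had 534, 481 and 538 peaks, against 128, 149 and 177 in H3K9me3 replicate 2. H1.0 had 82, 110 and 132 peaks there in replicate 1 and 67, 92 and 139 in replicate 2. The excess was thus seen in 1 of the 4 lists, and its source was not tested. From 20 and 30 Mb on the same chromosome the higher counts were in H1.0, with 242 and 298 peaks in replicate 1 and 213 and 281 in replicate 2, against 183 and 139 in H3K9me3 replicate 1 and 116 and 110 in H3K9me3 replicate 2.

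**Figure D3:**
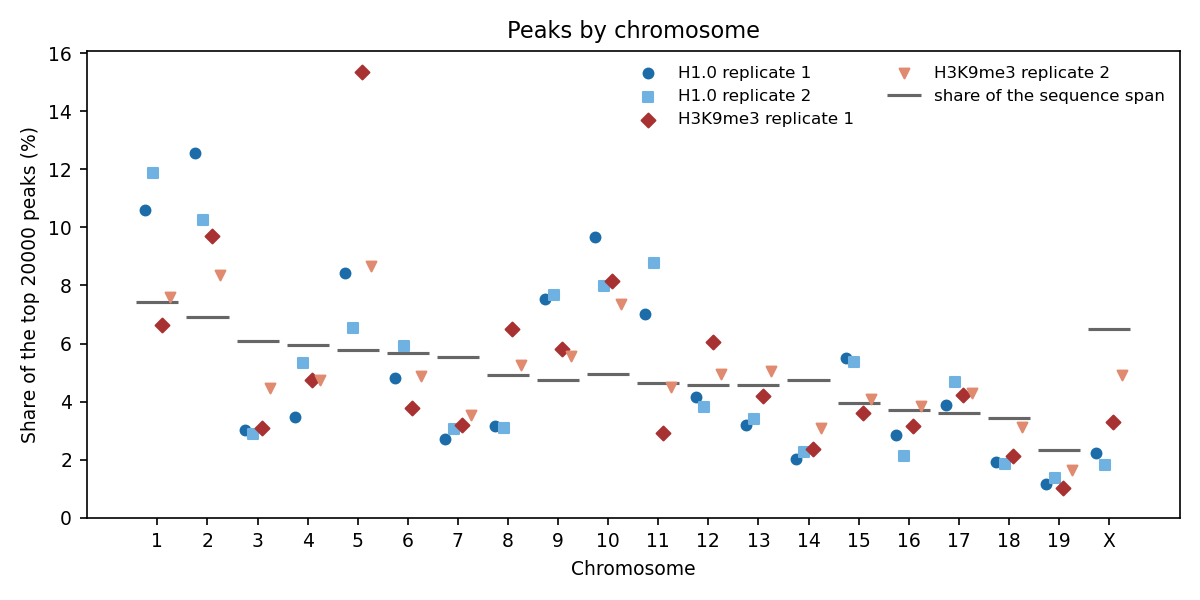
Share of the top 20000 peaks of each list (y axis, %) on each of 20 chromosomes (x axis), with grey bars for the chromosome's share of the sequence span. H1.0 lies above H3K9me3 on chromosomes 1, 2, 9, 11 and 15, all points lie below the bar on X, and H3K9me3 replicate 1 reaches 15.4% on chromosome 5.

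H1.0 peaks mostly lay away from H3K9me3 peaks. Counting any shared base, 4.91% of H1.0 replicate 1 peaks touched a peak of H3K9me3 replicate 1 and 13.0% one of H3K9me3 replicate 2. For H1.0 replicate 2 these shares were 6.11% and 10.4%. Read from the other side, 4.79% and 4.95% of H3K9me3 replicate 1 peaks touched H1.0 replicates 1 and 2, and 10.5% and 6.90% of H3K9me3 replicate 2 peaks did so.

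In the top 20000, the H3K9me3 lists overlapped each other more than any other pair of day 1 lists did. Among H1.0 lists, 13.6% of replicate 1 peaks touched replicate 2 and 16.2% the other way round. Among H3K9me3 lists, 89.2% of replicate 1 peaks touched replicate 2, and 52.4% of replicate 2 peaks touched replicate 1. Relative to the share of sequence that the other list covers, shared bases were 8.73 times as many between H1.0 lists and 12.4 times as many between H3K9me3 lists. The 4 pairs across marks gave 1.52, 1.13, 3.08 and 1.42 times, all above 1 in the top 20000. That direction turned with list length: full lists gave 0.885, 0.807, 1.84 and 0.930, so 3 of the 4 pairs then shared fewer bases than the cover of the other list, against 1.92 between the H1.0 lists and 6.41 between the H3K9me3 lists. H1.0 replicate 1 touched H1.0 replicate 2 (13.6%) about as often as it touched H3K9me3 replicate 2 (13.0%), although H1.0 replicate 2 covers 0.635% of the span and H3K9me3 replicate 2 covers 7.53%. At other list lengths it touched H3K9me3 replicate 2 more often than H1.0 replicate 2, with 26.2% against 16.2% in the top 1000, 16.1% against 12.9% in the top 5000 and 13.8% against 3.82% in full lists.

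The share of H1.0 peaks that touched H3K9me3 was highest among the strongest peaks. Among ranks 1 to 1000, 49.1% of H1.0 replicate 1 peaks touched H3K9me3 replicate 2, against 17.9% at ranks 1001 to 5000 and 9.27% at ranks 5001 to 20000. The 3 shares were 16.7%, 7.35% and 3.47% in H3K9me3 replicate 1. For H1.0 replicate 2 they were 25.5%, 9.15% and 4.01% in H3K9me3 replicate 1 and 28.6%, 14.2% and 8.20% in H3K9me3 replicate 2. All 4 pairs thus had lower shares at lower rank, although the last band, with 15000 peaks, held the largest number of touching peaks in each pair. Overlap between the H1.0 lists was likewise lower at lower rank, with 25.7%, 21.3% and 10.7% of replicate 1 peaks in replicate 2 and 46.3%, 23.3% and 12.3% of replicate 2 peaks in replicate 1. The strongest 1000 peaks of H1.0 replicate 1 thus touched H3K9me3 replicate 2 more often than they touched H1.0 replicate 2. Among H3K9me3 lists, 95.2%, 97.3% and 86.7% of H3K9me3 replicate 1 peaks lay in H3K9me3 replicate 2.

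**Figure D4:**
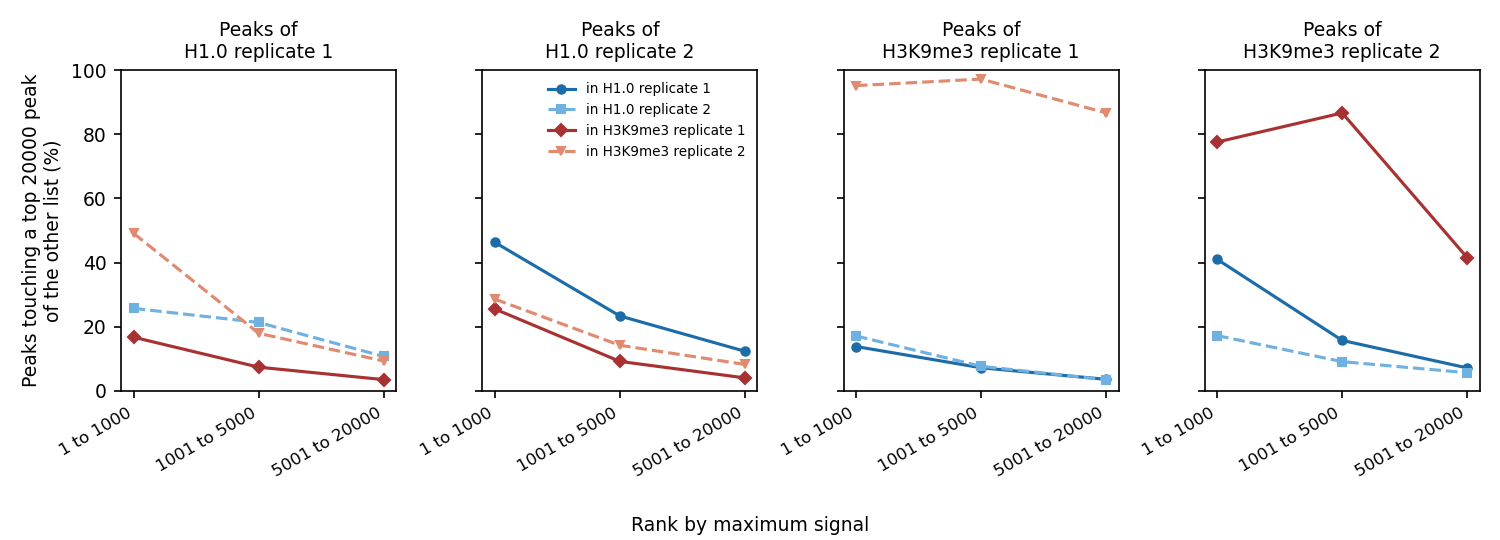
Share of the peaks of each list (1 panel per list) that touch a top 20000 peak of each other list (y axis, %), by rank of the peak's maximum signal (x axis). The share of peaks that touch the other mark is lower at lower rank in every panel, with 49.1%, 17.9% and 9.27% for H1.0 replicate 1 in H3K9me3 replicate 2, and the H3K9me3 lists overlap most.

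H1.0 peaks that touched H3K9me3 lay less often in gene bodies than those that touched neither list, while gene ends gave no single order. Of the top 20000 H1.0 peaks, 851 (4.25%) in replicate 1 and 977 (4.88%) in replicate 2 touched both H3K9me3 lists, and 39.5% and 45.4% of these lay in gene bodies. Peaks that touched neither H3K9me3 list numbered 17271 (86.4%) and 17672 (88.4%), and 58.4% and 62.6% of them lay in gene bodies. Near gene ends the order was the other way, with 33.3% and 37.1% within 5 kb inside both H3K9me3 lists and 32.2% and 32.7% outside both. Peaks that touched only 1 H3K9me3 list were more numerous, with 1878 in H1.0 replicate 1 and 1351 in replicate 2. Of these, 37.0% and 44.1% lay in gene bodies. Near gene ends lay 20.7% and 32.2% of them, below the shares outside both lists, clearly so in replicate 1 alone.

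At the scale of 1 Mb, H1.0 cover went weakly with gene cover, while the values for H3K9me3 were near 0. Over 2641 bins, Spearman's rho between covered bases was 0.77 for the H1.0 lists and 0.84 for the H3K9me3 lists. Across marks it was 0.26 and 0.18 for H1.0 replicate 1 and 0.23 and 0.16 for H1.0 replicate 2, against H3K9me3 replicates 1 and 2 in turn. Gene-body cover per bin had a rho of 0.35 and 0.41 with H1.0, and of -0.01 and -0.04 with H3K9me3. Bins share chromosomes, mappable sequence and base composition, so these values describe the bins and carry no test.

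Merging the 4 lists gave 54452 regions. Of these, 2140 were in both H1.0 lists and neither H3K9me3 list, with a median width of 3253 bp and 63.9% in gene bodies. In both H3K9me3 lists and neither H1.0 list were 8870 regions, with a median of 5872 bp and 36.1% in gene bodies. All 4 lists held 324 regions, the widest kind with a median of 14085 bp, 39.8% of them in gene bodies. Merged regions grow with each list that joins them, so the width of the last kind follows in part from how they were made.

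The strongest region in all 4 lists was at chr9:88094401-88096896, 231 kb from Nt5e, the gene of the ecto-nucleotidase CD73. Its maximum signal was 117 and 34 in H1.0 and 151 and 877 in H3K9me3, and it held the highest H3K9me3 replicate 1 value of all. The next was chr13:66424983-66451425 over 2410141K09Rik, with 15 and 17 in H1.0 and 65 and 301 in H3K9me3. Others were at chr9:123923678-123926488, 35.6 kb from the chemokine receptor gene Ccr1, and in the zinc finger gene array on chromosome 4, at chr4:146049976-146254253 over Zfp600 and Zfp987 and at chr4:146425247-146557169 over Zfp981, Zfp992 and Zfp993.

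The 5 strongest regions of H1.0 alone were from 559 to 7764 bp wide, on both sides of the median of their class. The first was at chr19:61263510-61264531, 35.05 kb from Csf2ra, a cytokine receptor subunit gene, with maximum signals of 140 and 97 in H1.0. The next lay in Atrnl1 (chr19:58113210-58113768) with 97 and 45, then at chr1:58613564-58621327, 17.6 kb from Ndufb3, a subunit gene of respiratory complex I, with 91 and 42. Next came chr1:181739967-181745530 in Dnah14, a dynein gene, with 75 and 36, and chr15:12872519-12873952 in Drosha with 44 and 35. The strongest regions of H3K9me3 alone were chr5:91422393-91423309, 19.4 kb from Btc, a growth factor gene, with 32 and 242 in H3K9me3, and chr10:82365317-82389110 over Gm4924 with 60 and 226. Then came chr5:151730891-151734684, 79.7 kb from Rfc3, with 45 and 217, chr5:104812585-104841847 over Zfp951 with 56 and 210, and chr11:79230518-79239379 next to Wsb1 with 30 and 191. Narrow regions of very high signal were not filtered for repeat-rich or artefact-prone sequence, and what part such sequence has in them was not tested.

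Genes were sorted by which lists had at least 1 base of a top peak in the gene body. Of 21627 protein-coding genes, 1513 (7.0%) were in both H1.0 lists and neither H3K9me3 list. In both H3K9me3 lists and neither H1.0 list were 819 (3.79%), all 4 lists held 787 (3.64%), and no list held 12245. The H1.0 lists held 24.0% and 24.0% of genes, and the H3K9me3 lists 11.1% and 18.5%. Gene length moved with all classes: the median was 51643 bp for H1.0 alone, 30377 bp for H3K9me3 alone, 168519 bp for all 4 lists and 9647 bp for no list, against 17330 bp over all genes. Of 989 genes over 200 kb, 346 (34.98%) were in all 4 lists, against 12 of 7741 genes up to 10 kb. In genes of that length the marks can lie far apart.

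Of the 10 strongest genes of H1.0 alone, 8 had their strongest peaks at the same place in both lists, the exceptions being Sfi1 and Hjurp. Drosha, which encodes the nuclease that cuts primary microRNAs, had maximum signals of 44 and 35 at peaks of 1434 and 800 bp in its body (chr15:12872519-12873952 in replicate 1). Pknox1, a homeodomain factor gene, had 89 and 30, and Slc8a3, a sodium-calcium exchanger gene, had 59 and 26. Fbxl18, an F-box gene, had 61 and 19, with peaks of 186 and 346 bp, and Il31ra, a cytokine receptor gene, had 48 and 18. The others were Uxs1 (27 and 19), Sfi1 (16 and 25), Arhgef1 (17 and 16) and C2cd6 (19 and 13). None of these 9 had more than 17.4% of its body covered by either H1.0 list.

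Hjurp differed from them in how much of the gene was covered. Its body was covered to 38.2% and 88.7% by H1.0 in replicates 1 and 2, with maximum signals of 26 and 17, and to 0% by either H3K9me3 list. The H1.0 replicate 1 peak at its start site was 12157 bp wide, at chr1:88270462-88282618, and took in the promoter printed above. Trpm8, the cold-sensing channel gene whose promoter is also printed, lies nearby, as does the Ugt1a cluster. The Ugt1a genes share most of their bodies and encode glucuronosyltransferases, and Ugt1a10, which spans them, was in all 4 lists with maximum signals of 14 and 15 in H1.0 and 32 and 110 in H3K9me3. There the H3K9me3 peaks were at chr1:88170001-88179896 and chr1:88167950-88182502, while the strongest H1.0 peaks were at chr1:88093205-88096096 and chr1:88216967-88224851, so within this locus the strongest peaks of the marks did not coincide.

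The strongest genes of H3K9me3 alone were mostly zinc finger genes or unnamed models. Gm4924 had 52.4% and 84.9% of its body covered, with maximum signals of 60 and 226. Zfp97 had 48.6% and 80.6% covered with 27 and 125, and Zfp68 had 75.9% and 100% covered with 38 and 117. Such cover of a whole body was not seen at Dop1b, with 0.220% and 3.90% covered and signals of 32 and 172, or at Gm525, with 1.97% and 19.01% covered and 42 and 146. The others were Gm31255 (36 and 143), Gm20385 (34 and 135), LOC115488002 (31 and 127), Gm45871 (22 and 122) and Gm38699 (28 and 112). In all 4 lists, the leading genes beside Ugt1a were 2410141K09Rik, Zfp600 and Naaladl2, and at Zfp600 the body was covered to 34.8% and 19.9% by H1.0 and to 57.0% and 100% by H3K9me3.

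Zinc finger genes, many of which encode silencers of repeats that recruit the H3K9 methyltransferase SETDB1 through KAP1, lay in H3K9me3 alone more often than in H1.0 alone in the top 20000. The order was reversed with full lists, where 48 were in H1.0 alone and 2 in H3K9me3 alone, while H1.0 replicate 1 then held 386 of the 398. The H1.0 lists held 29.1% and 23.4% of them, and the H3K9me3 lists 36.4% and 42.5%. Of 398 genes, 14 were in H1.0 alone (3.52%, against 7.0% of all genes), 61 in H3K9me3 alone (15.3%, against 3.79%) and 31 in all 4 lists (7.79%, against 3.64%). Their median length was 17984 bp, near that of all genes. Examples with both marks were Zfp960, with maximum signals of 43 and 10 in H1.0 and 37 and 122 in H3K9me3, and Zfp984, with 16 and 10 in H1.0 and 38 and 152 in H3K9me3. Zfp473 (15 and 12) and Zfp580 (11 and 10) had H1.0 alone, and Zfp157 (31 and 97) had H3K9me3 alone. These genes stand in arrays of similar copies, where reads can be shared between copies and 1 wide peak can hold several genes.

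Other tandem families are given against the same background of 7.0%, 3.79% and 3.64% of all genes in H1.0 alone, in H3K9me3 alone and in all 4 lists. Of 57 clustered protocadherins, adhesion genes whose bodies overlap on chromosome 18, 2 were in H1.0 alone (3.51%), 18 in H3K9me3 alone (31.6%) and 7 in all 4 lists (12.3%). Because of that overlap 1 peak can count for several genes, so these are not separate cases. Pcdhga1, Pcdhga10, Pcdhga11 and Pcdhga12, in H3K9me3 alone, all had maximum signals of 7 and 29. The 7 is the lowest value in the top 20000 of H3K9me3 replicate 1. Vomeronasal receptors of type 2, pheromone receptors, had 6 (4.84%), 19 (15.3%) and 1 (0.806%) of 124 genes in these classes. With full lists the order was reversed in both families, with 4 protocadherins and 9 of these receptors in H1.0 alone and 0 and 1 in H3K9me3 alone. Olfactory receptors, whose median length is 950 bp, had 10 of 1110 in H1.0 alone (0.901%) and 37 in H3K9me3 alone (3.33%), of which the last is near the share of all genes. The other short families lay below the shares of all genes in each class: vomeronasal receptors of type 1 had 0, 2 and 0 of 231, keratins had 3, 1 and 0 of 112, and ribosomal protein genes had 0, 0 and 0 of 89. Of all genes up to 10 kb, however, only 1.21% were in H1.0 alone and 2.23% in H3K9me3 alone. Keratins in H1.0 alone (2.68%) and olfactory receptors in H3K9me3 alone (3.33%) lay above those shares, and the other shares of these short families lay below them.

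Hox and histone genes had no H3K9me3 peak in the top 20000, and their H1.0 shares were mostly at or below those of all genes. They are short, with median lengths of 3737 bp for Hox, 487 bp for core histone and 788 bp for linker histone genes. Of all genes up to 10 kb, the H1.0 lists held 7.36% and 6.07%, and the H3K9me3 lists 2.91% and 7.88%. The Hox and core histone shares in H1.0 lay above those of such short genes, although some members, among them Hoxa3 at 44009 bp, are longer. H1.0 replicates 1 and 2 held 7 and 4 of 39 Hox genes (17.9% and 10.3%, against 24.0% and 24.0% of all genes), and H3K9me3 held 0 and 0 (against 11.1% and 18.5%). The share in H1.0 alone was 5.13%, under the 7.0% of all genes. Hoxa3 had maximum signals of 14 and 7 in H1.0, and Hoxb3 had 11 and 5. Core histone genes, which lie in clusters and are transcribed in S phase, were held by H1.0 replicate 1 in 17 of 57 cases (29.8%) and by replicate 2 in 4 (7.02%), against 0 and 0 for H3K9me3. H3c2 (12 and 6) and H2bc6 (12 and 5) were in both H1.0 lists, 3.51% of the core histone genes. Linker histone genes were held in 3 and 1 of 10 cases by H1.0, against 0 and 0 by H3K9me3, with 0 in both H1.0 lists, and H1f0 itself had no top 20000 peak of either mark.

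Of 26 genes for H3K9me3 writers and readers, 3 were in H1.0 alone (11.5%, against 7.0% of all genes) and 2 in H3K9me3 alone (7.69%, against 3.79%). With full lists they were 9 and 0. Ehmt1, which encodes an H3K9 methyltransferase, had maximum signals of 12 and 6 in H1.0. Mphosph8, which encodes the H3K9me3-binding subunit of the HUSH silencing complex, had 15 and 6, and Kdm4b, which encodes an H3K9 demethylase, had 14 and 6. Tasor, the gene of another HUSH subunit, had 12 and 46 in H3K9me3, with peaks of 5156 and 5134 bp at chr14:27423590-27428745 and chr14:27423873-27429006, which reach the CG-rich promoter printed above. Smchd1, a gene needed for silencing of the inactive X chromosome, had 14 and 66 in H3K9me3, at 51.5 and 49.9 kb from its start site.

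Among 13 AP-1 genes, Fosl2 was in H1.0 alone (7.69%, against 7.0% of all genes) and Atf3 in H3K9me3 alone (7.69%, against 3.79%). Fosl2 had maximum signals of 11 and 6, and its strongest peaks lay at different places in the H1.0 lists. Atf3, a stress-induced repressor, had 12 and 51 in H3K9me3. Its peaks at chr1:191183092-191187142 and chr1:191183212-191188623 both covered the start site and the promoter printed above. With full lists Fosl2 stayed in H1.0 alone and Atf3 was in none of the classes. Junb, Jun and Fos had no top 20000 peak in any of the 4 lists.

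Imprinted genes, which are expressed from 1 parental copy and have control elements marked by H3K9me3 on the methylated copy, were in H1.0 lists in 4 and 1 cases and in H3K9me3 lists in 5 and 8. Of these 17 matched genes, 0 were in H1.0 alone (against 7.0% of all genes). In H3K9me3 alone were Nnat, Gnas and Mest (17.6%, against 3.79%), and Grb10 was in all 4 lists (5.88%, against 3.64%). Nnat had maximum signals of 14 and 52 in H3K9me3, with peaks at chr2:157558452-157561849 and chr2:157556181-157564365 over its promoter. Mest had 13 and 47, at chr6:30735329-30740006 and chr6:30733682-30740492. Gnas had 7 and 20, at the bottom of both top 20000 lists. With full lists Nnat stayed in H3K9me3 alone, while Mest and Gnas were in none of the classes.

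Of 23 fibroblast genes, 4 were in H1.0 alone (17.4%, against 7.0% of all genes), 0 in H3K9me3 alone (against 3.79%) and 1, the collagen receptor gene Ddr2, in all 4 lists (4.35%, against 3.64%), while 7 were in no list. Single lists held 9 and 12 of the 23 for H1.0 (39.1% and 52.2%, against 24.0% and 24.0% of all genes). For H3K9me3 they held 2 and 5 (8.70% and 21.7%, against 11.1% and 18.5%), near the shares of all genes. The 4 genes in H1.0 alone were the collagen genes Col3a1 (11 and 6), Col5a1 (11 and 7) and Col5a2 (16 and 6), and Prrx1 (13 and 5), a mesenchymal factor gene. With full lists Col3a1 and Col5a1 stayed in H1.0 alone, Col5a2 was in all 4 lists and Prrx1 was in none of the classes. The median length over the list was 35926 bp, against 17330 bp over all genes. Of all genes of 10 to 50 kb, 7.21% were in H1.0 alone, and the H1.0 lists held 21.8% and 22.8%. Of all genes of 50 to 200 kb, 16.5% were in H1.0 alone, and the H1.0 lists held 48.4% and 49.2%. Col3a1 is of the shorter kind, while Col5a1, Col5a2 and Prrx1 are of the longer kind. The part of length in the fibroblast share was not tested. At Col5a2 the H1.0 peaks of both lists overlapped, at chr1:45500513-45504914 and chr1:45502019-45503511, whereas at Prrx1 replicate 1 covered the start site and the replicate 2 peak lay 31.4 kb away. Peaks do not measure RNA, so the fibroblast identity of the cells could not be checked from these lists.

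Cardiac genes showed no single pattern. Of 25 sarcomere genes, Ttn (13 and 6), the titin gene, and Actn2 (12 and 6), the gene of a Z-disc actinin, were in H1.0 alone (8.0%, against 7.0% of all genes), and Nebl was in all 4 lists (4.0%, against 3.64%). The 16 cardiac transcription factor genes had 0 in any class. Of 12 calcium handling and ion channel genes, whose median length is 77863.5 bp, 0 were in H1.0 alone, 16.7% were in H3K9me3 alone (against 3.79%) and 25.0% in all 4 lists (against 3.64%). The potassium channel gene Kcnq1 (12 and 42) was among those in H3K9me3 alone, and Cacna1c, Ryr2 and Slc8a1 were in all 4 lists. At Ryr2, the cardiac calcium release channel gene, maximum signals were 14 and 5 in H1.0 and 11 and 63 in H3K9me3, and the strongest peaks of the 4 lists lay at 4 different places in the gene. Of 12 neuronal genes, with a median length of 344610 bp, Rbfox3 (12 and 6) was in H1.0 alone and Tubb3 (8 and 25) in H3K9me3 alone (8.33% each), and Ank2 and Csmd1 were among the 25.0% in all 4 lists. Among 15 housekeeping genes, Tbp (9 and 25) was in H3K9me3 alone (6.67%, against 3.79%). With full lists Ttn, Kcnq1 and Rbfox3 were in all 4 lists, Tubb3 and Tbp were in none of the classes, and Actn2 stayed in H1.0 alone.

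**Figure D5:**
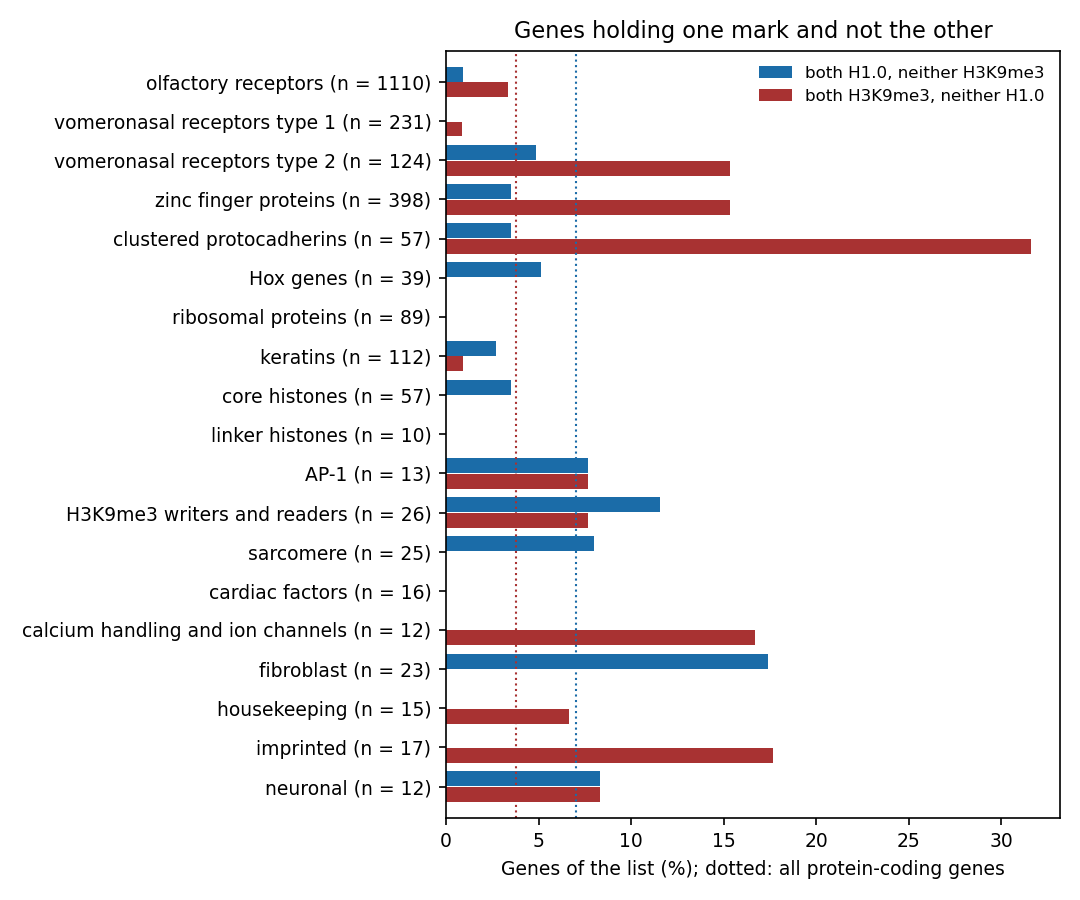
Share of the genes of each list (x axis, %) held by both H1.0 lists and neither H3K9me3 list (blue) or by both H3K9me3 lists and neither H1.0 list (red), with the number of genes beside each name and dotted lines at 7.0% and 3.79% for all protein-coding genes. Zinc finger genes have 3.52% in H1.0 alone and 15.3% in H3K9me3 alone, and fibroblast genes have 17.4% in H1.0 alone and 0 in H3K9me3 alone. The dotted lines are not matched for gene length.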

How the data were processed

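The deposited files are 1 peak list per sample, made by the authors with Bowtie2 and SEACR on mm10, per the submitters' processing notes; versions, duplicate handling, the role of the 8 IgG samples and any scaling to depth are not given in the sources used here. Values are signal deposited by the authors: the coverage summed in a peak and the highest coverage in it. The labels give 30 M reads per sample; aligned depth is unknown, so precision rests on list length and on how far same-mark lists differ. Peaks were ranked by maximum signal, with ties broken by summed signal, which favours wide peaks, then position, and the top 20000 were used. A peak lay in a gene body, or within 5 kb of a gene end, by its midpoint; overlaps needed 1 bp, as did genes. Gene positions (49550 genes, 21627 protein-coding) came from RefSeq GRCm38.p6; strand and 150 bases before starts came from its promoter table. Introns were not separated from exons or from untranslated regions. No genome was used here, so no peak sequence is shown.

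Tests were exact permutation tests over the 4 lists (two-sided, threshold 0.05, smallest p 0.333), in Python 3.11.15 with numpy 2.4.6, pandas 2.3.3 and scipy 1.17.1. Interval code was tested on simulated data. Members, gene lists and tests were chosen with earlier results of these data known. The genes and regions named were the 10 genes and 5 regions per class with the highest score, the lowest within-list signal percentile over the lists that had to hold them, plus members of the gene lists. Imprinted, ion channel, neuronal, housekeeping, keratin and core histone genes were named after their values were seen. Alternatives were full lists, ranking by summed signal, the top 5000, other windows and overlaps, merging across 1 kb, protein-coding genes alone, blocks by replicate number or list name, and leaving out each list; start sites alone within 1 kb were added after seeing the data. The 8 MEF2C lists and 8 IgG samples were not analysed here.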

Additional observations from a re-analysis of the deposited data

Results flagged for a closer look

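Peaks outside the chromosomes compared were present in all 4 lists. On chromosome Y there were 283 and 22 peaks in H1.0 replicates 1 and 2, and 128 and 76 peaks in H3K9me3 replicates 1 and 2. On unplaced or unlocalised scaffolds there were 481 and 233 peaks in H1.0 replicates 1 and 2, and 339 and 105 peaks in H3K9me3 replicates 1 and 2. They drew attention as signal in data that the comparisons did not use, with no control list analysed here to set them against.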

How the results depend on the processing

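The differences in median width, chromosome X share, gene-body share and gene-end share kept their direction in all 45 alternatives run, with 0 reversed. None could pass 0.05 in this design. Ranked by summed signal, median widths averaged 2623 bp for H1.0 and 5405 bp for H3K9me3 and overlapped (exact p = 0.667). The chromosome X shares of the marks overlapped with full lists (exact permutation test, p = 0.667). Leaving out 1 list at a time, the width difference ran from -3315 to -698 bp and the X difference from -2.88 to -1.26 points. The gene-body difference ran from 17.9 to 22.8 points and the gene-end difference from 9.42 to 11.1 points. Same-numbered lists did not deviate together in cover (r = 0.0397 over 2641 bins of 1 Mb). Whether they came from the same cells was not stated, and this value cannot decide it. A block by replicate number or list name cannot change the mean differences, since each block holds 1 list of each mark. For the blocks, the values of -2006 bp, -2.07, 20.3 and 10.3 points were thus fixed in advance. So was their kept direction, counted among the 45 alternatives. Exact sign flips gave p = 0.5, the smallest possible. Within same-numbered pairs the mean overlaps were 7.66% of H1.0 and 5.84% of H3K9me3 peaks.

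Counts of genes depended on how many peaks were used. With full lists H1.0 alone held 4385 genes instead of 1513 (1291 shared), H3K9me3 alone 155 instead of 819 (40 shared) and all 4 lists 2110 instead of 787. The top 5000 gave 371, 524 and 133, and a minimum of 10% of the body gave 125 for H1.0 alone and 25 for all 4 lists. Without 1 list they ran from 1551 to 3409, from 874 to 1700 and from 825 to 1186, the highest without H1.0 replicate 1 for the first and without H3K9me3 replicate 1 for the others. With full lists the mean share of H3K9me3 peaks touching H1.0 was 37.2%, against 6.79% for the top 20000. No pair was near that mean: 54.4% and 83.3% of H3K9me3 replicate 1 and 2 peaks touched H1.0 replicate 1, against 3.85% and 7.24% for H1.0 replicate 2. H1.0 replicate 1 then covers 34.6% of the span.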
